A study of Mus musculus with 8 samples.

Results

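The CSF1 and CSF2 growth factor axis was followed through 7 genes: the ligands Csf1, Il34 and Csf2 and the receptor chains Csf1r, Csf2ra, Csf2rb and Csf2rb2. The arrays carry 13 probes whose gene name in the array files is one of these 7, out of 22441 named genes on the array, and they were taken by gene name alone. Of the 7 genes, 5 were bright enough to be tested (11 of the 13 probes), and 2, Il34 and Csf2, were not. The samples were invading macrophages sorted by RFP fluorescence (4 samples) and resident microglia sorted by GFP fluorescence (4 samples). Both groups came from the ischemic brains of the same 4 bone marrow chimeric C57BL/6 mice, animals A to D, after 30 min of MCAo (occlusion of the middle cerebral artery) and 7 days of reperfusion, with no further treatment, and replicates 1 to 4 of both groups are animals A to D. The age of the mice, the promoters behind the 2 fluorescent markers and the completeness of the marrow replacement were not stated in the labels, and every sample is from an injured brain at the same time point. RNA of each sample was amplified by a global PCR before it was labelled and hybridised to 1 one-colour array.

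CSF1 and IL-34 are the ligands of CSF1R, a receptor tyrosine kinase on which microglia and most tissue macrophages depend for survival and proliferation. In the healthy brain IL-34 is made mainly by neurons, while CSF1 is made by glia and by activated myeloid and stromal cells. CSF2, better known as GM-CSF, is released by activated lymphocytes, endothelial cells and other stimulated cells, and acts through a ligand-binding alpha chain, Csf2ra, and a signalling chain, Csf2rb, which is also part of the receptors of IL-3 and IL-5. Mice have a closely related copy, Csf2rb2, that serves IL-3 alone.

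All levels are log2 signals relative to the 75th percentile of the gene probes of the same array, so that 0 is the signal at that percentile, and all differences are macrophages minus microglia. A level belongs to its own probe and says nothing about another probe. Per array, 45.7% to 57.1% of the probes gave signals well above background. P2ry12, a purinergic receptor that defines microglia, measured 3.25 to 4.44 on the macrophage arrays and 6.77 to 7.56 on the microglia arrays. Ccr2, the chemokine receptor of monocytes, measured 3.16 to 3.70 on the macrophage arrays and 0.74 to 1.49 on the microglia arrays, so both defining genes lay on the side their labels give, with neither absent from the other group. One array stood apart. Across genes, macrophage replicate 2 (animal B) correlated with the other macrophage arrays at r = 0.828 to 0.867, while those correlated with each other at 0.940 to 0.960. The summed linear signal of 12 endothelial markers was 737.5 on macrophage replicate 2, 12.996 to 62.2 on the other macrophage arrays and 4.68 to 6.44 on the microglia arrays, with 10 to 12 of the 12 markers above background on macrophage arrays and 5 to 6 on microglia arrays. For 8 natural killer cell markers the sums were 22.4 on macrophage replicate 2, 1.85 to 4.25 on the other macrophage arrays and 1.05 to 1.44 on the microglia arrays, with 5 to 8 of the 8 above background on macrophage arrays and 2 to 4 on microglia arrays. For 9 genes that mark border macrophages, those of the meninges and vessels, the sums were 39.0 on macrophage replicate 2. On the other macrophage arrays they were 153 to 244, and on the microglia arrays 65.8 to 127. Of these 9, 6 to 9 were above background on macrophage arrays and 8 to 9 on microglia arrays. Their median log2 signals overlapped between the groups, at 1.43 to 4.16 and 2.05 to 3.35. Single genes of this list went both ways. Cd163 ran from -5.99 to -2.73 on macrophage arrays and from 0.33 to 1.22 on microglia arrays, and Siglec1 from 3.51 to 6.42 and from 3.70 to 4.95. Because macrophage replicate 2 stood apart, values without it are given for the tested member genes and for the counts of the lists. The samples are bulk populations, in which fewer cells expressing a gene and less RNA per cell cannot be told apart.

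**Figure D1:**
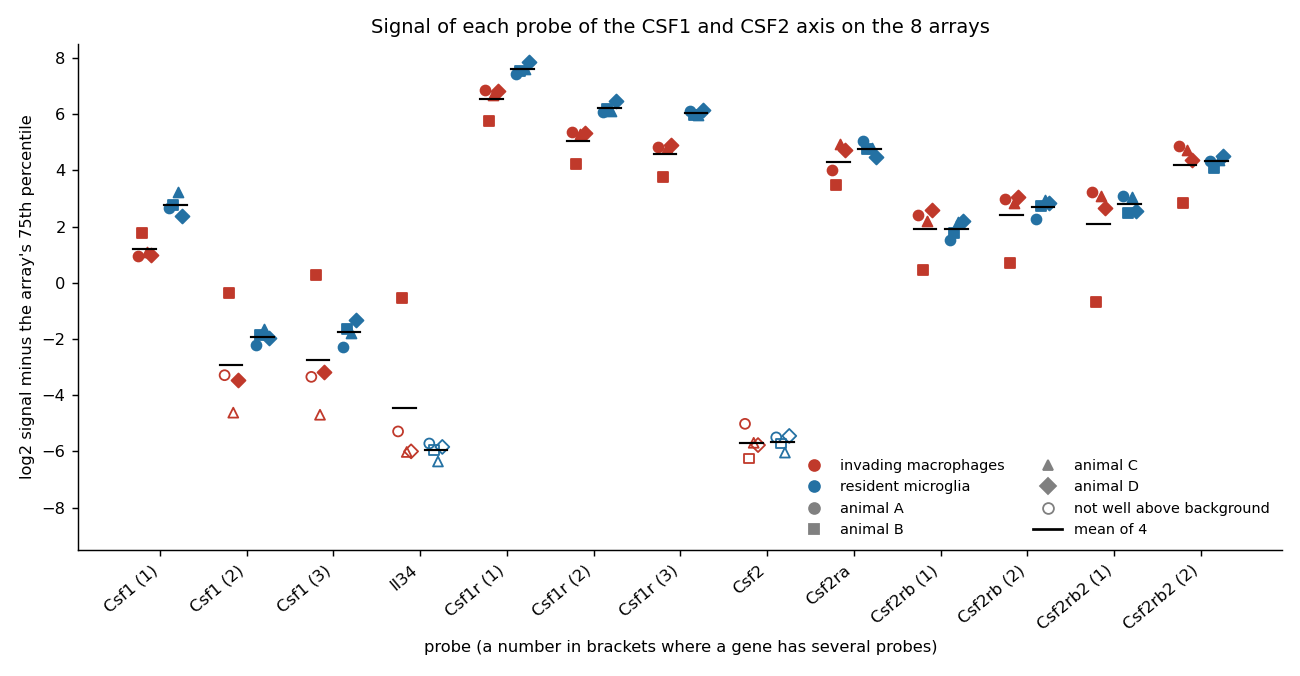
Log2 signal relative to the array's 75th percentile (vertical axis) of the 13 probes (horizontal axis), macrophages in red to the left of microglia in blue, with the animal given by the marker shape, open markers for signals not well above background and a bar for the mean of 4. The first Csf1 probe and the 3 Csf1r probes are lower on all 4 macrophage arrays. For the Csf2 receptor probes the groups overlap, and the square of macrophage replicate 2 is the lowest point of each. Without that square, the macrophage values of the first Csf2rb probe lie above all its microglia values. For Csf2ra, macrophage replicate 1 also lies below all microglia arrays.

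Csf1 was lower in the macrophages, and it was the 1 gene of the 5 tested that passed the test over all genes, in which 4.30% of 13204 genes were called lower and 3.01% higher (limma, Benjamini-Hochberg adjusted p under 0.05). Its main probe, which the array files describe as transcript variant 1 (A_51_P195506, 10 replicate spots per array, build mm9, chr3:107544333-107544392), had signals of 0.95, 1.79, 1.12 and 1.01 in macrophages of animals A to D and of 2.65, 2.78, 3.23 and 2.37 in microglia of the same animals. The groups did not overlap, the highest macrophage sample was that of animal B, and the macrophages were lower in 4 of 4 animals. The 10 spots of an array had an SD of 0.094 to 0.152 on the log2 scale, against an SD between animals of 0.39 in macrophages and 0.36 in microglia. The means were 1.22 ± 0.39 in macrophages and 2.76 ± 0.36 in microglia (SD, n = 4 each), a log2 difference of -1.54 (SE 0.28, 95% interval -2.19 to -0.90, limma adjusted p = 0.0148). On a linear scale Csf1 was 2.91-fold lower (95% interval 1.86- to 4.56-fold). With the animal as a block the adjusted p was 0.0445, and 2.82% of all genes were called lower and 1.79% higher in that fit. Without macrophage replicate 2 the difference was -1.73, a 3.32-fold reduction (adjusted p = 0.00378), in a fit that called 7.32% of genes lower and 9.46% higher. Without microglia replicate 2 it was -1.54 and just missed the threshold (adjusted p = 0.0502), and in the other 6 fits without 1 array it passed.

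Csf1 has 2 further probes, both described in the files as transcript variant 3, and their pattern on macrophage replicate 2 was different. To show which stretch each kind of probe reads, the first 30 of its 60 bases are given for the variant 1 probe and for a variant 3 probe (A_55_P2169669, chr3:107548521-107548580), all in lower case since no base is singled out.
Csf1 variant 1 probe: tgtggggcttacttagccttctggttacag
Csf1 variant 3 probe: cagctgcatcatatattgtcatatgttgag
The other variant 3 probe (A_55_P2017914, chr3:107548550-107548609) overlaps this one by 31 bases, so the 2 are not independent measurements. Whether these stretches are coding or untranslated was not determined here.

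The probe A_55_P2169669 measured -3.35, 0.28, -4.69 and -3.17 in macrophages A to D, and -2.28, -1.65, -1.77 and -1.32 in microglia. Macrophage replicate 2 was the highest of all 8 arrays, and the other 3 macrophage arrays were the 3 lowest. The overlapping probe A_55_P2017914 gave the same order of groups, with -3.29, -0.37, -4.62 and -3.46 in macrophages and -2.21, -1.84, -1.64 and -1.95 in microglia. Of the macrophage arrays 2 of 4 had signals well above background for both probes, and of the microglia arrays 4 of 4 had, and both were lower in the macrophages of 3 of 4 animals. Over all arrays their differences of -0.97 and -1.02 missed the threshold (adjusted p = 0.561 and 0.471, limma over all probes). They were -0.16 and -0.19 with normexp background correction, -0.32 and -0.46 without macrophage replicate 3, and -1.98 and -1.88 without macrophage replicate 2 (adjusted p = 0.0228 and 0.0152 in this last fit). Of the 3 macrophage arrays in that fit, those of replicates 1 and 3 were not well above background for either probe, so the size of these differences and their calls rest in part on signals at background. The endothelial and natural killer marker sums were highest on the same array, and their part in these values was not tested.

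Il34 was close to background throughout, with 1 exception. Its probe (A_51_P268234, chr8:113265835-113265894) measured -5.29, -0.52, -6.02 and -6.00 in macrophages A to D and -5.72, -5.95, -6.36 and -5.84 in microglia. Only the value on macrophage replicate 2 was well above background, so Il34 was not tested and no fold is given. Cldn5, a tight junction gene that defines brain endothelium, was also highest on that array, with 1.61, 7.09, 3.33 and -1.34 in macrophages and -5.69, -5.87, -2.50 and -2.38 in microglia, and its part in the Il34 signal was not tested. Of 8 neuronal markers, 2 to 4 were above background on any array of either group. Among them Snap25 was bright on every array, at 8.78 to 9.48 in macrophages and 8.62 to 9.19 in microglia, and the source of this signal was not tested.

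Csf2 was not well above background on any of the 8 arrays. Its probe (A_51_P171075, 9 to 10 usable spots per array, chr11:54060772-54060799 as far as the files place it) ran from -6.25 to -5.02 in macrophages and from -6.04 to -5.45 in microglia. The groups overlapped, and at these signals a difference in Csf2 was not detectable.

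**Figure D2:**
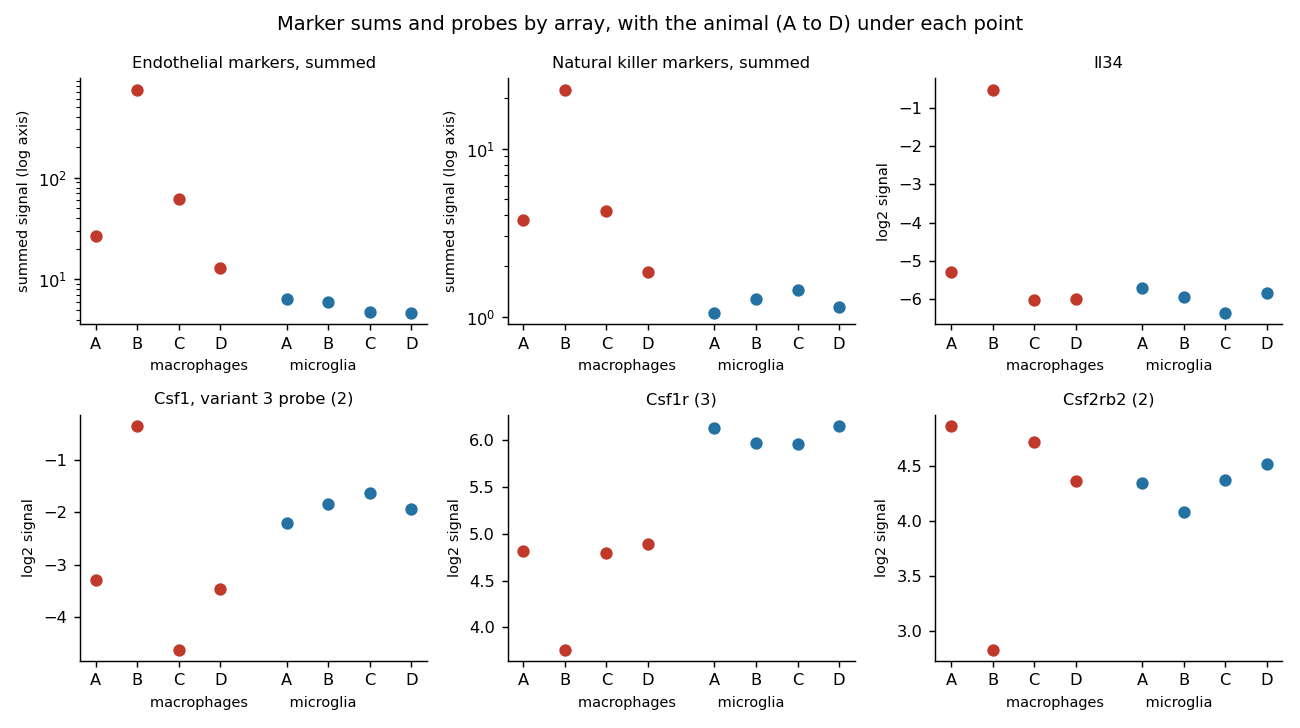
Summed linear signals of the endothelial and natural killer marker lists (log axes) and log2 signals of 4 probes (Il34, Csf1 variant 3, the third Csf1r probe and the second Csf2rb2 probe) on each array, macrophages in red to the left of microglia in blue, with the animal under each point. Macrophage replicate 2 (animal B) has the highest marker sums, 737.5 and 22.4, the only Il34 signal above background, and the lowest Csf1r and Csf2rb2 signals.

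Csf1r, the receptor of both CSF1 and IL-34, had lower signals on all 4 macrophage arrays than on any microglia array by each of its 3 probes, of which 1 passed the test over all probes. Its brightest probe (A_52_P602091, chr18:61289398-61289758, a span of 361 bases for a 60-base probe) measured 6.87, 5.76, 6.69 and 6.81 in macrophages A to D and 7.44, 7.55, 7.62 and 7.87 in microglia. The groups did not overlap, and macrophage replicate 2 was the lowest array. The difference was -1.09 (SE 0.29, 95% interval -1.76 to -0.42), a 2.13-fold lower signal, and missed the threshold over all genes (adjusted p = 0.0597, limma). Without macrophage replicate 2 the difference was smaller, -0.83 or 1.78-fold, and passed (adjusted p = 0.0267), while with the animal as a block the adjusted p was 0.100.

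Groups that did not overlap, with macrophages lower, were found for 9.37% of the tested genes, and Csf1 and Csf1r were 2 of the 5 tested here. The probe A_55_P2025073 (chr18:61278661-61278720) measured 5.37, 4.24, 5.28 and 5.34 in macrophages and 6.07, 6.20, 6.13 and 6.48 in microglia, a difference of -1.16 (adjusted p = 0.0606, limma over all probes). The probe A_55_P2025078 (chr18:61290725-61290784) measured 4.82, 3.76, 4.80 and 4.90 in macrophages and 6.13, 5.97, 5.96 and 6.15 in microglia. With a difference of -1.49 it was 2.80-fold lower and passed (adjusted p = 0.0218), though not without any 1 of the 4 microglia arrays (-1.52 to -1.45, adjusted p = 0.0560 to 0.0705). Both were lower in 4 of 4 animals, again with the lowest value on macrophage replicate 2.

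Among the 11 tested probes, 2 were called lower, this one and the main Csf1 probe, and 0 were called higher (4 and 0 at an unadjusted p under 0.05, against 12.7% and 10.8% of all probes), while 4.11% of 29322 probes were called lower in all. The Csf1 probe lost this call in 3 of the 8 fits without 1 array, those without macrophage replicate 1, microglia replicate 2 or microglia replicate 3 (adjusted p up to 0.0568). With the animal as a block 0 of the 11 passed (4 at an unadjusted p under 0.05, against 22.9% of all probes), with adjusted p = 0.0534 for the Csf1 probe and 0.0586 for the Csf1r probe over all probes, of which 2.51% were called lower. Without macrophage replicate 2, the 3 probes of Csf1 and the 3 of Csf1r all passed as lower, 6 of the 11, in a fit that called 6.84% of probes lower, though the 2 variant 3 probes of Csf1 were near background there. With that replicate left out and the animal as a block, 0 of the 11 passed (adjusted p = 0.0637 to 0.161 for the same 6, limma), and 2.03% of probes were called lower. At an unadjusted p under 0.05 the 6 passed, against 23.4% of all probes. Within an array, the Csf1r probe A_55_P2025078 minus A_52_P602091 was -2.05 to -1.89 on macrophage arrays and -1.72 to -1.30 on microglia arrays. Minus A_55_P2025073 it was -0.55 to -0.45 on macrophage arrays and -0.33 to 0.06 on microglia arrays. These ranges do not overlap between the groups. For the third Csf1r pair, A_52_P602091 minus A_55_P2025073, they do, at 1.41 to 1.52 on macrophage arrays and 1.35 to 1.49 on microglia arrays, as they do for the pairs of Csf1 and Csf2rb2 probes. The ranges of the Csf2rb pair, A_52_P52618 minus A_66_P123635, overlap only at the edge. They are -0.643 to -0.245 on macrophage arrays and -0.958 to -0.641 on microglia arrays. None of these within-array differences was tested.

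**Figure D3:**
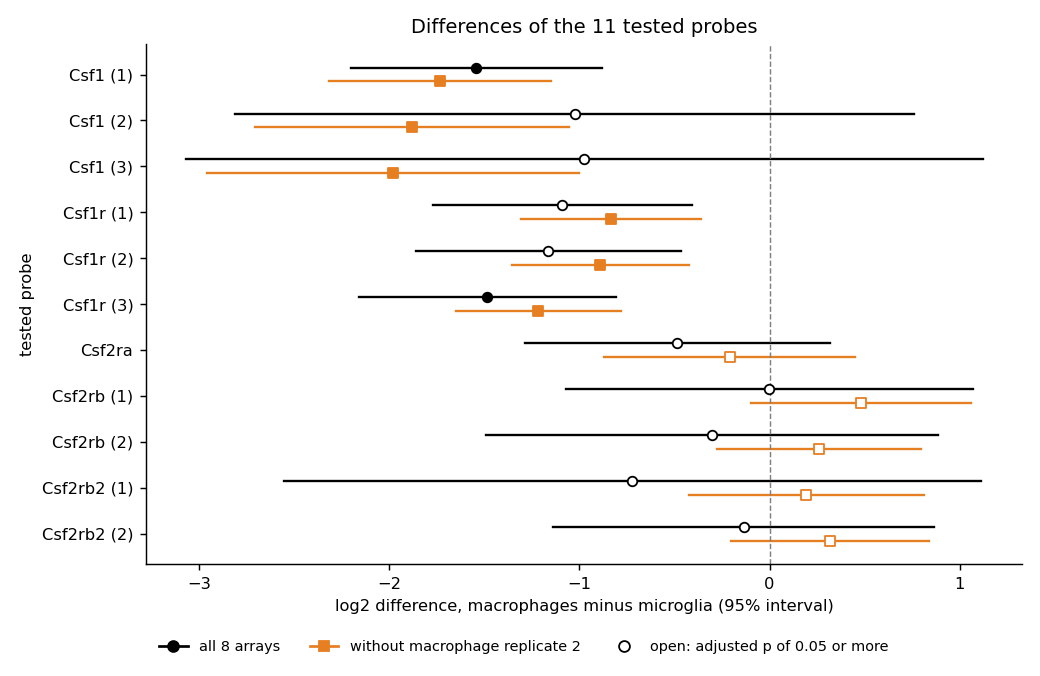
Log2 differences, macrophages minus microglia, with 95% intervals (horizontal axis) for the 11 tested probes (vertical axis), over all 8 arrays (black circles) and without macrophage replicate 2 (orange squares), filled where the adjusted p over all probes was under 0.05. Over all arrays 2 probes are filled, of Csf1 and of Csf1r, and without that replicate 6 are filled, all lower in macrophages.

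The GM-CSF receptor genes had no called difference between the groups. Csf2ra, the ligand-binding alpha chain (A_51_P341465, chr19:61300336-61300395), measured 4.03, 3.47, 4.93 and 4.74 in macrophages A to D and 5.06, 4.77, 4.80 and 4.47 in microglia. It was lower in the macrophages of animals A and B and higher in those of C and D. The difference was -0.48 (95% interval -1.28 to 0.31, adjusted p = 0.433, limma), an interval that runs from a 2.42-fold lower to a 1.24-fold higher signal. It was -0.21 without macrophage replicate 2 (adjusted p = 0.639) and -0.70 without macrophage replicate 3, the ends of the range over the fits without 1 array.

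Csf2rb and Csf2rb2 are near copies that lie close together on chromosome 15, and 1 probe of each reads almost the same stretch. The 30-base windows in which these probes (A_52_P52618, chr15:78181168-78181227, and A_51_P146753, chr15:78113126-78113185) are most alike are given to show how far the arrays can separate the copies. They share 27 of 30 bases, and capitals mark the bases that differ, which are A11G, C15T and C25A with the Csf2rb base first and positions counted from the 5′ end of the window.
Csf2rb probe window: ggcagatcaaAtgtCccttggtctCtgttc
Csf2rb2 probe window: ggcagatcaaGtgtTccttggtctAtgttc
Signal on either probe could include RNA of the other copy. In the best window of each of the other 3 pairings of a Csf2rb with a Csf2rb2 probe, 14 to 15 of 30 bases were identical.

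Csf2rb, the shared signalling chain, had its brighter probe (A_66_P123635, chr15:78179504-78179563) at 2.99, 0.71, 2.85 and 3.04 in macrophages and at 2.29, 2.73, 2.96 and 2.84 in microglia. Apart from the low value of macrophage replicate 2 the groups overlapped. The difference was -0.30 (95% interval -1.48 to 0.88, adjusted p = 0.764, limma), and 0.26 without that replicate (adjusted p = 0.458). The probe that resembles Csf2rb2 measured 2.40, 0.47, 2.21 and 2.59 in macrophages and 1.53, 1.77, 2.17 and 2.20 in microglia, with a difference of -0.00 (adjusted p = 0.999), and 0.48 without macrophage replicate 2 (adjusted p = 0.229).

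Csf2rb2, the copy specific to IL-3, had its brighter probe (A_55_P2034663, chr15:78114097-78114156) at 4.86, 2.83, 4.73 and 4.37 in macrophages and at 4.35, 4.08, 4.37 and 4.52 in microglia. The difference was -0.14 (95% interval -1.13 to 0.86, adjusted p = 0.883, limma), and 0.32 without macrophage replicate 2 (adjusted p = 0.342). The probe that resembles Csf2rb measured 3.24, -0.67, 3.09 and 2.66 in macrophages and 3.10, 2.48, 3.05 and 2.57 in microglia, a difference of -0.72 (adjusted p = 0.625). For both copies and all 4 probes the lowest of the 8 values was that of macrophage replicate 2. Leaving it out turned the sign of the difference for all 4 probes, and none of the 4 passed in either fit.

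The arrays lay on 2 slides, the first with macrophage replicate 1 and microglia replicates 1 and 2, the second with the other 5 arrays. Csf1 differed by -1.59 with the slide as a block (adjusted p = 0.0294, limma), by -1.76 within the first slide (adjusted p = 0.222) and by -1.50 within the second (adjusted p = 0.295). For Csf1r these differences were -1.08, -0.62 and -1.33 (adjusted p = 0.112, 0.665 and 0.339). Csf2ra gave -0.48, -0.89 and -0.26, Csf2rb -0.27, 0.49 and -0.69, and Csf2rb2 -0.07, 0.65 and -0.47, none of which passed. A single macrophage array stands on the first slide, so its comparison assumes that this array varies like the others.

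The genes around these receptors were grouped in lists and described with the same fit, by their counts and their median difference beside the 0.04 of all tested genes. The first held other growth factors and receptors of blood cell formation, and further receptors such as those of interferon gamma and IL-10. Of its 11 tested genes 2 were lower and 0 higher, where 4.30% of all tested genes were lower and 3.01% higher (limma). Both lower genes were among these further receptors. At an unadjusted p under 0.05 there were 4, against 24.5% of all tested genes. Its median was 0.22, and -0.08 without macrophage replicate 2. Ifngr1, a chain of the interferon gamma receptor, measured 3.20, 2.83, 2.84 and 3.34 in macrophages and 4.36, 4.26, 3.72 and 4.49 in microglia, a difference of -1.15 (adjusted p = 0.0286, limma, 0.0541 with the animal as a block). Il10ra, a chain of the IL-10 receptor, measured 2.83, 1.83, 2.57 and 2.43 in macrophages and 3.37, 3.77, 3.47 and 3.54 in microglia, a difference of -1.12 (adjusted p = 0.0370, 0.109 with the block). For both genes the groups did not overlap. Ifngr1 lost its call in 5 of the 8 fits without 1 array and Il10ra in 6, with adjusted p up to 0.0888 and 0.112. Il3, Il5, Csf3, Kit and Sdc1 were below the filter, among them both other ligands of the common beta chain.

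Of 29 tested genes of signalling from CSF1R, such as the adaptor Grb2, the kinases Lyn, Syk and Akt1 and the phosphatase Ptpn6, 0 passed in either direction (limma, 6 at an unadjusted p under 0.05, against 24.5% of all tested genes), and their median was 0.06, with -0.02 to 0.25 in the fits without 1 array. The smallest p was that of Src, a kinase recruited by the activated receptor, with -1.67, -0.15, 0.09 and -0.05 in macrophages and 1.04, 1.02, 0.87 and 1.39 in microglia, a difference of -1.53 (adjusted p = 0.0541, limma, 0.0404 without macrophage replicate 1 and 0.0395 without macrophage replicate 2). It passed in 10 of the 24 alternatives. The groups did not overlap, and the lowest value was that of macrophage replicate 1. Tyrobp, the adaptor DAP12, differed by -0.11 (adjusted p = 0.888) and by 0.23 without macrophage replicate 2 (adjusted p = 0.555), and was singled out for its role after its value was seen, as were the other genes named here without a call.

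Of 21 tested genes of signalling from the common beta chain 2 were higher and 0 lower, against 3.01% and 4.30% of all tested genes, with a median of 0.17, and 0.21 without macrophage replicate 2. Pim1, a kinase that STAT5 induces and 1 of the higher genes, measured 3.56, 2.87, 3.96 and 3.73 in macrophages and 2.08, 1.12, 2.35 and 2.14 in microglia, a 3.05-fold higher signal (log2 difference 1.61, adjusted p = 0.0284, limma). It was higher in 4 of 4 animals and passed with the animal as a block, while leaving out single arrays ended its call 7 times in 8 (adjusted p up to 0.0782). The call was also lost with the slide as a block (adjusted p = 0.0625) and with no filter on dim probes (adjusted p = 0.054). Stat5a and Stat5b, the main effectors of GM-CSF, differed by 0.36 and 0.17 (adjusted p = 0.589 and 0.802). Jak2, the kinase bound to the beta chain, differed by 0.63 (adjusted p = 0.614). Its signal was well above background on 3 arrays of each group, and higher in the macrophages of 2 of 4 animals. Microglia replicate 4 measured -5.91, against -3.59 to -2.50 on the other microglia arrays, so the size of this difference rests largely on 1 array.

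Of 19 transcription factors that act on Csf1r or in the macrophage response to growth factors 1 was higher and 1 lower, against 3.01% and 4.30% of all tested genes. Their median was -0.29, with -0.40 to -0.09 in the fits without 1 array, where the last is that without macrophage replicate 2. Egr1, an immediate early gene that growth factors induce, measured 1.59, 1.46, 0.75 and 1.97 in macrophages and 3.71, 3.55, 3.14 and 3.63 in microglia, a 4.19-fold lower signal (log2 difference -2.07, adjusted p = 0.00496, limma). Runx3 measured 2.75, 1.37, 3.23 and 2.42 in macrophages and -0.31, -0.56, 0.64 and 0.66 in microglia, a 5.05-fold higher signal (log2 difference 2.34, adjusted p = 0.0192). Neither overlapped between the groups, and both passed with the animal as a block. Egr1 passed in all 8 fits without 1 array, and Runx3 missed in 3, those without macrophage replicate 1, microglia replicate 1 or microglia replicate 2 (adjusted p = 0.0545 to 0.0624). Spi1, which encodes PU.1, the factor that binds the Csf1r promoter in myeloid cells, differed by -0.52 (adjusted p = 0.477), and Irf8 by -1.01 (adjusted p = 0.162). Without macrophage replicate 2 these were -0.088 for Spi1 (adjusted p = 0.789) and -0.61 for Irf8 (adjusted p = 0.0855).

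Of 13 tested genes listed as raised by GM-CSF in cultured mouse myeloid cells 5 were higher and 0 lower, against 3.01% and 4.30% of all tested genes, with a median of 1.65. Whether GM-CSF raises each listed gene was not tested. Flt3 and Cd209a of this list are also markers of dendritic cells, and neither was called. Earlier results of these data already held Pparg, Ccl17 and Ccl22 among the higher genes when the list was written, so the count is a description. Ccl17, a ligand of CCR4, measured -0.25, 1.57, -0.65 and 0.47 in macrophages and -3.09, -3.52, -2.99 and -1.31 in microglia. Its signal was 8.07-fold higher, with 1 microglia array not well above background (adjusted p = 0.0210, limma, 0.0535 with the animal as a block). Ccl22, another ligand of CCR4, measured -2.49, -1.35, -2.34 and -1.40 in macrophages and was not well above background on any microglia array, at least 3.76-fold higher (adjusted p = 0.0321, limma). It met the filter only through the 4 macrophage arrays, so its direction was tied to the filter. Its call, 1 of the 5, compares signal with background and is a description. Without 1 array Ccl17 lost its call in 3 of 8 fits and Ccl22 in 4, with adjusted p up to 0.0675 and 0.0814. The other 3 were Pparg, the nuclear receptor that GM-CSF induces in alveolar macrophages, and the MHC class II pathway genes Cd74 and H2-Ab1. Pparg passed narrowly (adjusted p = 0.0496, limma, 0.0279 with the animal as a block), and its groups overlapped. With the slide as a block it missed the threshold (adjusted p = 0.0867, limma). Interferon gamma also raises the MHC class II genes, and the cause of the differences in this list was not tested.

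With the animal as a block the counts of higher and lower genes were 0 and 0, 0 and 0, 2 and 0, 1 and 1, and 5 and 0 for the 5 lists in this order, where 1.79% of all genes were higher and 2.82% lower. In the first 2 lists 4 and 5 genes had an unadjusted p under 0.05 in that fit, against 24.0% of all genes. Without macrophage replicate 2 the counts were 1 and 2, 1 and 1, 2 and 0, 1 and 3, and 7 and 0, where 9.46% of all genes were higher and 7.32% lower. With the slide as a block they were 0 and 0, 0 and 1, 0 and 0, 1 and 1, and 3 and 0, where 1.64% were higher and 3.18% lower. The first list and that of the common beta chain, with no call there, had 4 and 5 genes at an unadjusted p under 0.05, against 21.7% of all genes. Besides Pim1, the genes that lost their call with the slide as a block included Ifngr1, Il10ra and Ccl22 (adjusted p = 0.0659, 0.0773 and 0.0667, limma). These 3 lost it with no filter on dim probes as well (adjusted p = 0.0647, 0.0796 and 0.0533).

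Within either slide alone 0 genes of any list passed. Within the first slide 0.333% of all genes were higher and 1.28% lower, and the lists had 1, 2, 2, 5 and 7 genes at an unadjusted p under 0.05, against 14.5% of all genes. Within the second slide 0.0303% were higher and 0.704% lower, and the lists had 2, 1, 4, 2 and 5 such genes, against 12.1% of all genes. Over all 8 fits without 1 array the last list had 2 to 7 higher genes and medians of 1.56 to 1.74, the list of signalling from the common beta chain 0 to 2 higher genes, and the list of other growth factors and receptors 0 to 2 lower genes. The medians of the 5 lists were 0.15, 0.17, 0.17, -0.39 and 1.64 with the slide as a block, 0.10, 0.24, 0.17, -0.09 and 1.50 within the first slide, and 0.12, -0.16, 0.15, -0.35 and 1.51 within the second, where all genes had medians of 0.05, 0.15 and 0.01.

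**Figure D4:**
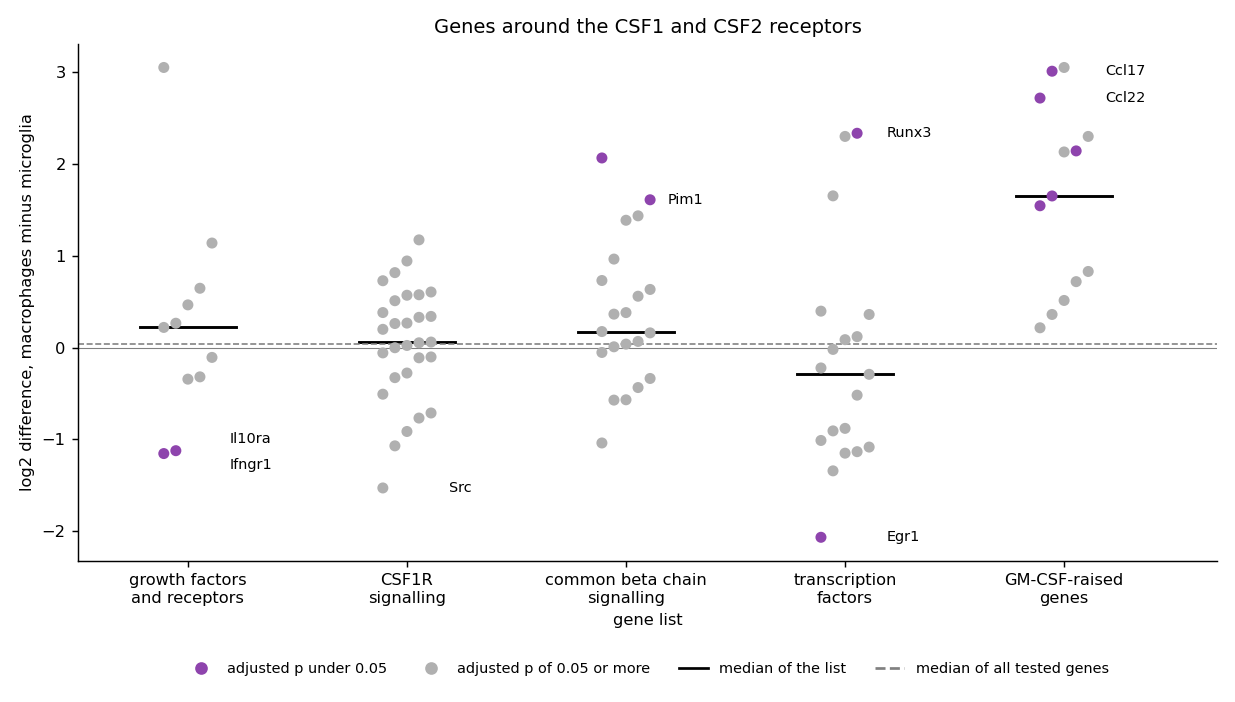
Log2 differences, macrophages minus microglia (vertical axis), of the tested genes of the 5 lists (horizontal axis), in purple where the adjusted p was under 0.05, with a black line at each list's median and a dashed line at the 0.04 of all tested genes. The last list lies highest, with a median of 1.65 and 5 of its 13 genes in purple.

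The genes most like each tested member were found by centring each gene on its mean over the 8 arrays and taking the smallest root mean square difference in log2 signal. For Csf1 they were Cdkn1a (0.23), Mfng (0.25) and Higd2a (0.29). For Csf1r they were Asph (0.09), Man2a2 (0.10) and Lpcat1 (0.11), which, like Csf1r, were lowest on macrophage replicate 2. For Csf2ra they were C2cd2l (0.16), Ddx39b (0.16) and Emc3 (0.17), for Csf2rb Tns3 (0.17) and Sra1 (0.18), and for Csf2rb2 Hk3 (0.11), Tlr13 (0.11) and Tbc1d5 (0.12). The genes given here for Csf2rb and Csf2rb2 all had their lowest value on macrophage replicate 2 as well.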

How the data were processed

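The intensity values are the background-subtracted, detrended signals in the array files that the authors deposited, made with Agilent Feature Extraction 10.7.3.1 per the file headers. Per the labels' protocols, cDNA made from each sample's mRNA went through a global PCR amplification (SuperAmp) and was labelled with Cy3, which can alter the proportions of transcripts. A log2 table of the same arrays, also deposited by the authors, served as an alternative. Its columns have medians of 4.604 to 4.606 and correlate with their own arrays at 1.000, while its normalization and centring are not stated. It gave 430 genes higher and 687 lower, against 431 and 688 with quantile normalization, so these 2 alternatives are hardly separate checks.

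Control spots and outlier-flagged spots were dropped, replicate spots were averaged, and log2 signals were set relative to each array's 75th percentile. Probes well above background on at least 4 of 8 arrays were tested, and the brightest such probe stood for a gene. Probes were named through the GRCm38.p6 gene table, which gave all 13 probes the name in the files, and coordinates are those of the files. Groups were compared with limma 3.58.1 in R 4.3.3 (lmFit, eBayes, two-sided), adjusted by Benjamini-Hochberg over 13204 genes or 29322 probes. Python 3.11.15 with numpy 2.4.6, pandas 2.3.3 and matplotlib 3.10.9 made the tables and figures, and the fit was tested on simulated data. A bound ("at least") sets signals of the dimmer group at the lowest signal well above background of their array. The number of arrays limits the precision.

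Each sample is labelled with its animal, so the samples are paired by design. Deviations from group means correlated within animals A to D at 0.0706, 0.115, 0.087 and -0.001 across genes. The genes, gene lists and tests were chosen with earlier results of these data known. Named genes are all members, the 2 called genes with the largest difference in each direction of each list (or the smallest p where none was called), and the 3 genes most like each member. Further genes of the lists, such as Grb2, Lyn, Syk, Akt1, Ptpn6, Tyrobp, Stat5a, Stat5b, Jak2, Spi1, Irf8, Pparg, Cd74 and H2-Ab1, fall outside this rule and were named for their role after their values were seen. Some genes that this rule takes are not reported here. Alternatives were the scaling, background correction, filter, choice of probe, blocks, slides, eBayes settings and leaving out each array.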

Additional observations from a re-analysis of the deposited data

Results flagged for a closer look

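In 7 of 44 groups of 4 arrays, 1 array lay far from the other 3, with a gap to its nearest neighbour that exceeded Dixon's 95% critical value for 4 samples, as chance gives in about 1 group in 20. Macrophage replicate 2 was that array in 6 of the 7. It was high for Il34, at -0.523 against a next value of -5.29. For Csf1r it was low on all 3 probes, at 5.76, 4.24 and 3.76 against next values of 6.69, 5.28 and 4.80. For the brighter Csf2rb probe it was low at 0.712 against 2.85, and for the Csf2rb2 probe that resembles Csf2rb at -0.667 against 2.66. The last was Src, at -1.67 on macrophage replicate 1 against -0.15.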

How the results depend on the processing

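Csf1 was lower under all 24 alternatives (-1.76 to -1.18) and passed in 20. It missed the threshold with the mean over its 3 probes (-1.18, adjusted p = 0.283), within slide 1 (-1.76), within slide 2 (-1.50) and without microglia replicate 2 (-1.54, adjusted p = 0.0502). Csf1r was lower in all 24 (-1.33 to -0.62) and passed in 9: with the 75th percentile over probes detected on all arrays (-1.25), quantile normalization (-1.25), normexp (-1.06), the filter of all 8 arrays (-1.09), the mean over probes (-1.25), an intensity trend (-1.09), array weights (-0.93), the authors' table (-1.25) and without macrophage replicate 2 (-0.83). Csf2ra was lower and uncalled in all 24 (-0.89 to -0.15). Csf2rb and Csf2rb2 passed in none, and their sign turned in 5 and 6. The gene values were 0.048 and 0.25 with array weights, 0.49 and 0.65 within slide 1, 0.27 and 0.24 with the replicate block, macrophage replicate 2 left out (an alternative chosen after seeing the data) or with the slide and replicate block, and Csf2rb2 0.070 with median centring. The last 2 block fits gave the same values, since only animal B had its arrays on different slides. They are not separate checks, though the counts out of 24 hold both. The probes gave, for A_52_P52618 and A_66_P123635 of Csf2rb and A_51_P146753 and A_55_P2034663 of Csf2rb2 in turn, 0.24, 0.024, 0.042 and 0.23 with array weights, 0.75, 0.49, 0.45 and 0.65 within slide 1 and 0.43, 0.27, 0.087 and 0.24 in those 2 block fits, and A_52_P52618 and A_55_P2034663 gave 0.20 and 0.070 with median centring. Leaving out 1 array at a time gave ranges of -1.73 to -1.39 for Csf1, -1.20 to -0.83 for Csf1r, -0.70 to -0.21 for Csf2ra, -0.52 to 0.26 for Csf2rb, -0.36 to 0.32 for Csf2rb2, and, for the 4 probes in turn, -0.22 to 0.48, -0.52 to 0.26, -1.11 to 0.19 and -0.36 to 0.32. Where no value above shows it, the cause was not tested.

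Over all genes, 398 were higher and 568 lower in macrophages. Median centring gave 684 and 471 (59.2% of calls higher, against 41.2%) and moved the median of all genes by 0.21, and the percentile over probes detected on all arrays gave 345 and 854 (28.8% higher) and moved it by -0.16. Array weights gave 1577 and 1158, the replicate block 236 and 373, slide 1 alone 44 and 169, slide 2 alone 4 and 93, no filter 239 higher, the filter of all 8 arrays 345 lower, the slide as a block 216 higher, and single arrays left out 168 to 1249 higher and 324 to 966 lower. Of the list genes 8 were higher and 3 lower. Higher counts were 4 with the filter of all 8 arrays and with the slide block, 14 with array weights, 5 with no filter, 0 within either slide and 2 to 12 without 1 array. Lower counts were 5 with the percentile of detected probes and with normexp, 7 with array weights, quantile normalization and the authors' table, 1 with median centring, no filter and each replicate block, 0 within either slide and 1 to 6 without 1 array. Of the member probes 2 were called, against 4 with the percentile of detected probes, trend, normexp, quantile normalization or the authors' table, 6 with array weights, 1 with median centring or the slide block, 0 with each replicate block and within either slide, and 0 to 6 without 1 array. The counts over all genes changed in these fits as well. Besides those given above, they were 551 higher and 645 lower with normexp and 563 and 643 with the trend. With quantile normalization they were 431 and 688. The counts of list genes and member probes are therefore a description and no result about the members. The replicate block changed no call of a member gene. Ifngr1 and Il10ra lost their calls with median centring (adjusted p = 0.0805 and 0.0895). Signals near background limit Il34, Csf2 and the variant 3 probes of Csf1.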
